A study of Mus musculus with 19 samples.

Results

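The genes of fatty acid oxidation and ketone synthesis were followed in bulk liver RNA sequencing of 19 male C57BL/6 wild-type mice exposed to polyethylene (PE) microplastics, plastic particles given by mouth, on a control diet or on a diet that drives metabolic dysfunction-associated steatohepatitis (MASH). The members were 37 named genes of the 55836 genes in the count table, chosen by function, with earlier results of these data known. All 37 were among the 13597 genes that passed the filter on low counts. The mice were 8 weeks old at the start and were treated for 8 weeks with 1 of 4 combinations. CD + Veh (n = 4) received the control diet (CD, 10 kcal% fat) with vehicle, Tween 20 in water, by daily gavage, and CD + PE (n = 5) the same diet with 2 mg PE per mouse per day in that vehicle. MD + Veh (n = 5) received the MASH diet (MD, with 20 kcal% from fructose, 40 kcal% from fat and 2% cholesterol) and vehicle, and MD + PE (n = 5) the same diet with PE. Each library came from whole liver of 1 mouse, and the libraries were numbered in blocks by group. Levels are given in CPM, the counts of a gene relative to those of its library after scaling by the trimmed mean of M-values (TMM). A gene was called at an adjusted p below 0.05 by edgeR if its log2 fold change was also 0.38 or more in size, and calls of DESeq2 at the same limits are named as such. Group means are given ± SD over the 4 mice of CD + Veh or the 5 mice of each other group, log2 fold changes ± SE, and values of single libraries in the order of the replicates.

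Long-chain fatty acids are activated to acyl-CoA and carried into the mitochondrion as acylcarnitines, where the beta oxidation spiral shortens them to acetyl-CoA and the electron transfer flavoprotein hands their electrons to the respiratory chain. Very long and branched chains are first shortened in the peroxisome by a separate set of enzymes. In liver much of the acetyl-CoA is turned into ketone bodies for other tissues, and many of these genes are targets of the nuclear receptor Ppara.

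The libraries held 10398820 to 15456729 counts, with 10398820 to 12757617 in the PE libraries and 13406037 to 15456729 in the vehicle libraries, so that 1 CPM stood for 9.96 to 16.1 counts. All 8 hepatocyte markers were detected in every group, with a summed level of 74375 to 104480 CPM on CD and of 57987 to 77538 CPM on MD. Most of this sum was Alb, at 45968.5 to 69169.5 CPM on CD and 30523.7 to 43758.6 CPM on MD. The markers did not all move alike. Cyp2e1 was at 3069 to 4546 CPM in CD + Veh and higher, at 4703 to 6047 CPM, in MD + Veh. Fgb was at 4789 to 5678 CPM in CD + Veh and lower, at 2802 to 3367 CPM, in MD + Veh. The 8 adipocyte markers summed to 5.57 to 16.5 CPM on CD and to 79.0 to 243 CPM on MD, with Ucp1 at 0 throughout and Lep at 0 in CD + Veh and MD + PE. Most of the sum on MD was Cfd, at 66.9 to 224 CPM. The 12 skeletal muscle markers stayed at or below 43.7 CPM in CD + Veh and 3.58 CPM in MD + PE, but reached 470.0 CPM in CD + PE replicate 1 and 3491 CPM in MD + Veh replicate 1. The 8 Kupffer cell markers summed to 728 CPM in CD + PE replicate 2 against 93.8 to 134 CPM in the rest of that group, and the 8 intestinal epithelium markers to 298.9 CPM in MD + PE replicate 2 against 116 to 133 CPM in the rest of its group. The 8 kidney tubule markers stayed at or below 3.89 CPM in every library. A score of circadian clock genes ran from -3.94 to -2.62 in CD + Veh, below all other libraries, which ran from -2.46 to 0.99. In bulk tissue, fewer cells of a type and less RNA per cell cannot be told apart.

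The pairs of near-identical members limit what single-gene values can say, so the stretch in which the peroxisomal thiolases differ most is shown first. Acaa1a (chr9:119168742-119182956, + strand) and Acaa1b (chr9:118977091-118986161, - strand, both GRCm39) shared 96.5% of their 1272 coding bases, and 24.1% of the windows of 100 bases in the Acaa1a coding sequence were also in Acaa1b. Over coding bases 460 to 549 the genes differed at 13 positions, printed in capitals:

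Acaa1a: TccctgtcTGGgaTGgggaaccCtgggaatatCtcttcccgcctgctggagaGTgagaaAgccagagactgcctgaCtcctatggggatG
Acaa1b: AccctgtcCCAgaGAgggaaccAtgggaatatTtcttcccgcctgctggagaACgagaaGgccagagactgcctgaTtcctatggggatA

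Reads over such a stretch can be assigned to 1 gene, whereas reads within the longest identical run of 327 bases cannot. The thioesterases Acot1 and Acot2 shared 95.6% of their aligned coding bases and Acot1 and Acot3 83.9%, and the 4 Acot genes lie side by side on chromosome 12. Summed counts are therefore given beside the single values for both families.

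The RefSeq promoter windows (250 bases before to 50 after a gene start, from a GRCm38.p6 table) were available for 31 of the 37 members, in 36 windows. Crat, Acaa2, Decr1, Abcd2, Hsd17b4 and Vnn1 had none. They were searched on both strands for the direct repeat bound by Ppara with its partner Rxr, written as a pair of AGGNCA hexamers in the same direction with 1 base between them. None of the 36 member windows held it, and 125 of all 32851 windows (0.381%) did. The hexamer AGGTCA alone was in 7 of 36 member windows (19.4%) and in 16.3% of all windows, and the member windows belonged to Acadm, Acadvl, Acot3, Acot4, Cpt1a and Creb3l3. The windows of Acadm, which was called in 4 comparisons and held the hexamer, and of Acaa1b, the member with the highest level per kilobase, show both cases. Only the bases upstream of the annotated gene are printed, located by an exact match to GRCm39, with Acadm at chr3:153650318-153650530 (- strand) and Acaa1b at chr9:118986162-118986411 (- strand), and the hexamer on its reverse strand in capitals:

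Acadm: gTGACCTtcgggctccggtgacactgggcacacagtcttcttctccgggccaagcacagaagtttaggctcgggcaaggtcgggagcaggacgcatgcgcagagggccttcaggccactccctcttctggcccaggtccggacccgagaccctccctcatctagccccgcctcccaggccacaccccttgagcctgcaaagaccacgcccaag
Acaa1b: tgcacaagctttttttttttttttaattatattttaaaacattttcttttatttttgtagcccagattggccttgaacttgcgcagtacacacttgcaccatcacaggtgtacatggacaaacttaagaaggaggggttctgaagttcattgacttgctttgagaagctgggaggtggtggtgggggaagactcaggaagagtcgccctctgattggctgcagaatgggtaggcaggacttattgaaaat

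A match of letters is a description of the window and says nothing of binding.

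Compared per kilobase of transcript, the levels in CD + Veh ranged from 1.36 CPM per kb for Pdk4 to 441 CPM per kb for Acaa1b. Next to Acaa1b came the mitochondrial thiolase Acaa2 (289 CPM per kb), the flavoprotein subunit Etfb (215) and the very long-chain dehydrogenase Acadvl (181). At the low end stood Pdk4, Acot2 (1.42 CPM per kb), Acot3 (3.34), Abcd2 (3.55), Acot1 (3.97), Crat (7.10), Acot4 (8.04) and Vnn1 (8.37). Acaa1b held the first rank in all 4 groups and stood at 1302 CPM per kb in MD + Veh. All 37 members together took 0.667 to 0.841% of the counts of a CD + Veh library , 0.730 to 1.03% of a CD + PE library and 0.945 to 1.18% of an MD library.

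On the control diet 6 of 37 members were higher with PE than with vehicle and none was lower, against 1.22% of all tested genes called higher and 1.7% called lower (edgeR quasi-likelihood test with Benjamini-Hochberg adjustment). The fold change was positive in 36 of 37 members, with a median of 0.30 on the log2 scale against 0.01 over all tested genes. The members called were Crot, Aldh3a2, Slc25a20, Bdh1, Acadm and Cpt2. Of the 18 mitochondrial members 3 rose, with a median change of 0.25, and of the 10 peroxisomal members 1 rose, with a median of 0.26. At an unadjusted p below 0.05 stood 18 members, against 17.5% of all tested genes, and Abcd3 was the one of them with a negative change. DESeq2 called 10 members higher and 0 lower, against 3.85% of all tested genes in either direction, and added Acsl1, Crat, Acaa1b and Acot1.

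With vehicle 17 of 37 members were higher on the MASH diet than on the control diet and none was lower, against 4.74% of all tested genes called higher and 5.63% called lower (edgeR). The median change was 0.40 over the members and -0.0042 over all tested genes, and 33 members had a positive change. Of the mitochondrial members 8 of 18 rose (median 0.32) and of the peroxisomal members 4 of 10 (median 0.42). At an unadjusted p below 0.05 stood 22 members, against 28.6% of all tested genes, and DESeq2 called 18 higher and 0 lower, against 11.6% in either direction. This comparison and that of PE on the control diet share the CD + Veh libraries, so their values are given side by side below and not as separate evidence.

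In mice given PE, 5 of 37 members (Aldh3a2, Acaa1b, Ehhadh, Acadm and Hsd17b4) were higher on MD than on CD and 1 (Abcd2) was lower, against 1.69% of all tested genes called higher and 2.92% called lower (edgeR). The median change was 0.14, against -0.02 over all tested genes. Of the peroxisomal members 3 of 10 rose and of the mitochondrial members 1 of 18, which was Acadm. At an unadjusted p below 0.05 stood 12 members, against 21.7% of all tested genes, and DESeq2 called 6 higher and 1 lower, against 5.85% in either direction, adding Vnn1.

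On the MASH diet 0 of 37 members differed between PE and vehicle by edgeR, against 1.08% of all tested genes called in either direction. The changes of 27 members were positive, with a median of 0.10 against -0.01 over all tested genes, and 5 members had an unadjusted p below 0.05, against 15.7% of all tested genes. DESeq2 called 1 member, Acadm, against 2.18% of all tested genes, and both counts were near these shares. The interaction, the effect of PE on MD minus that on CD, was called for 0 of 37 members by edgeR, against 0.00735% of all tested genes. Its sign was negative in 36 of 37 members, with a median of -0.20 against -0.02 over all tested genes, 9 members had an unadjusted p below 0.05, against 8.77% of all tested genes, and DESeq2 called 1, Crot, against 0.625%. A smaller effect of PE on MD than on CD was therefore shown for no member by the edgeR test of the difference itself.

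With diet and PE together, MD + PE against CD + Veh, 19 of 37 members were higher and 1, Abcd3, was lower, against 6.02% of all tested genes called higher and 8.55% called lower (edgeR). The median change was 0.49, with 8 of 18 mitochondrial members higher and, of the 10 peroxisomal members, 7 higher and 1 lower. In the plot of changes by comparison the filled points lie mostly in the column of the diet with vehicle.

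**Figure D1:**
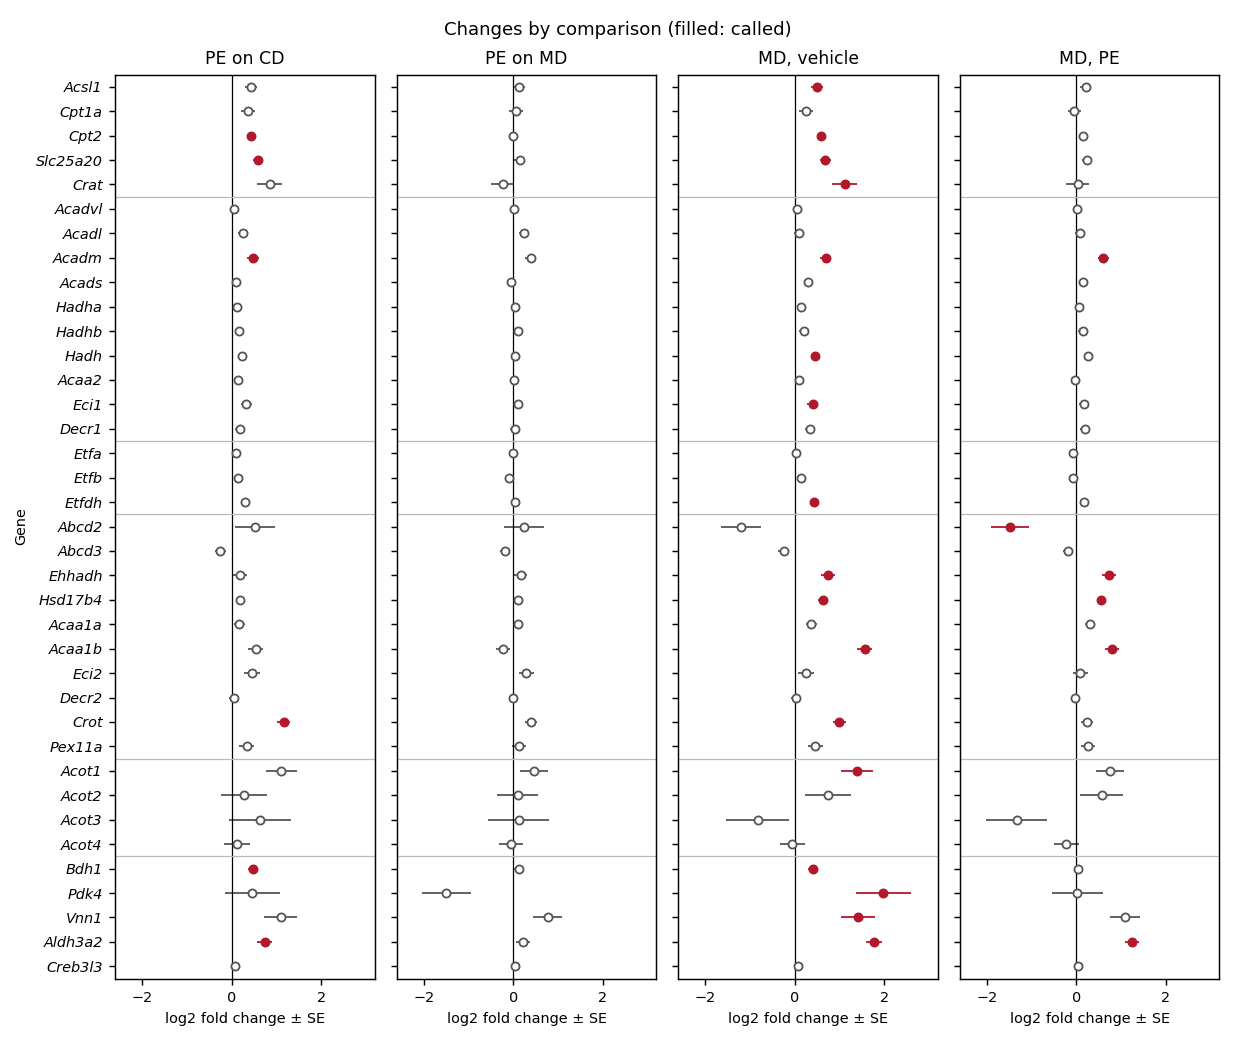
Log2 fold change of each of the 37 members (rows, grouped by role) in 4 comparisons, namely PE on CD, PE on MD, MD with vehicle and MD with PE. Bars are ± 1 SE of the edgeR fit and filled red points are called, which gives 6, 0, 17 and 6 filled points.

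The carnitine shuttle was the mitochondrial step in which PE on CD called most members, 2 of 5. Slc25a20 (chr9:108539250-108562760), the carrier that exchanges acylcarnitine for carnitine across the inner membrane, was at 55.9, 60.6, 61.7 and 81.6 CPM in the CD + Veh libraries and at 89.996, 82.4, 125, 88.3 and 102 CPM in the CD + PE libraries. In MD + Veh it was at 89.7, 105, 106, 123 and 97.8 CPM and in MD + PE at 114, 114, 115, 108 and 124 CPM. Every library with PE, MD or both was above every CD + Veh library, although CD + PE replicate 2 passed CD + Veh replicate 4 by less than 1 CPM. The log2 fold change was 0.59 ± 0.12, adjusted p = 0.0108 with PE on CD, and 0.68 ± 0.12, adjusted p = 0.000873 with MD on vehicle.

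Cpt2, the inner-membrane carnitine palmitoyltransferase that remakes acyl-CoA in the matrix, was at 78.2, 83.4, 89.05 and 88.9 CPM in CD + Veh and at 113, 98.8, 133, 108 and 122 CPM in CD + PE. It was at 114, 119, 134, 147 and 126 CPM in MD + Veh and at 130.3, 129, 140.3, 102 and 137 CPM in MD + PE. The CD + Veh libraries lay below all others, and those of MD + Veh and MD + PE overlapped. Its log2 fold change was 0.44 ± 0.10, adjusted p = 0.0181 with PE on CD, 0.59 ± 0.10, adjusted p = 0.000531 with MD on vehicle and -0.01 ± 0.09, adjusted p = 0.987 with PE on MD.

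Acsl1, the main long-chain acyl-CoA synthetase of liver, was at 681, 704, 604 and 724 CPM in CD + Veh and at 921, 753, 1133, 793 and 946 CPM in CD + PE. It was at 811, 915, 901, 1071 and 1107 CPM in MD + Veh and at 1019, 1099, 1268, 772 and 1109.9 CPM in MD + PE. The CD + Veh libraries lay below all others. Acsl1 rose by 0.50 ± 0.14, adjusted p = 0.0179 with MD on vehicle and by 0.64 ± 0.14, adjusted p = 0.00253 with MD and PE together, and PE on CD missed the threshold of edgeR (0.42 ± 0.14, adjusted p = 0.0904) and passed that of DESeq2 (adjusted p = 0.0288). Cpt1a, the outer-membrane enzyme that commits acyl-CoA to the mitochondrion, was called in no comparison, with 286 ± 56.2 CPM in CD + Veh and 368 ± 71.4 CPM in CD + PE (0.36 ± 0.16, adjusted p = 0.222). Crat, which moves short acyl groups between CoA and carnitine, was at 20.7, 24.9, 23.5 and 45.7 CPM in CD + Veh and at 80.05, 71.5, 54.6, 62.8 and 41.4 CPM in MD + Veh. CD + Veh replicate 4 lay within the MD + Veh range and the other CD + Veh libraries below it, and the log2 fold change was 1.12 ± 0.28, adjusted p = 0.0106. In CD + PE it was at 40.3, 44.8, 75.7, 29.7 and 67.4 CPM and in MD + PE at 43.5, 76.04, 48.7, 51.4 and 44.6 CPM, both overlapping CD + Veh. Within MD + Veh, Crat was highest in replicates 1 and 2, which also had the most skeletal muscle marker, 3491 and 219 CPM, and without replicate 1 the change was 1.02 (adjusted p = 0.0252). The part of muscle RNA in the rest was not tested. Crat had the largest change of the shuttle with PE on CD (0.85 ± 0.28, adjusted p = 0.0956), which missed the threshold of edgeR and passed that of DESeq2 (adjusted p = 0.0257).

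**Figure D2:**
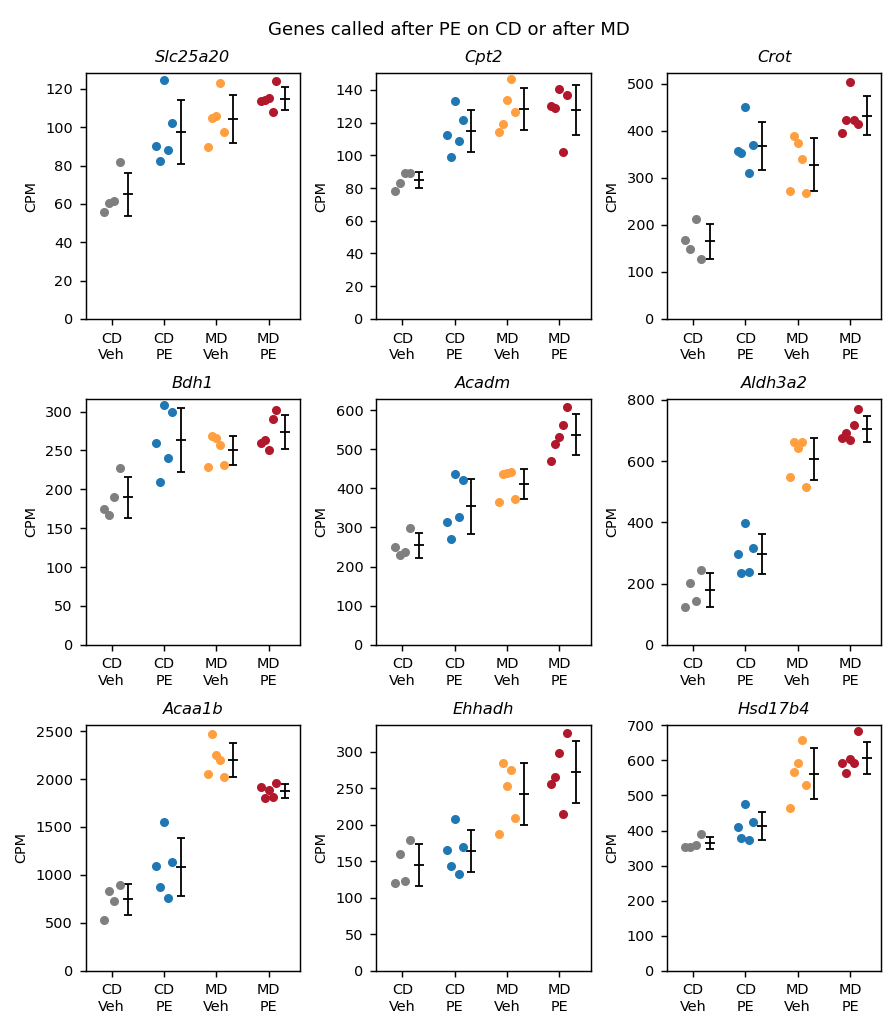
CPM of 9 members in each library, with 1 point per mouse and the mean ± SD beside the points; the axes start at 0. Slc25a20, Cpt2 and Crot have every CD + PE point above every CD + Veh point, while Acaa1b, Ehhadh and Hsd17b4 separate mainly by diet.

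Within the mitochondrial spiral the changes were uneven, and Acadm, the medium-chain acyl-CoA dehydrogenase (chr3:153627989-153650317), was called in 4 of the 5 comparisons of groups, as was Aldh3a2. It was at 251, 229, 238 and 299.8 CPM in CD + Veh and at 314, 272, 436, 327 and 421 CPM in CD + PE. It was at 364, 438, 438, 443 and 372 CPM in MD + Veh and at 471, 514, 531, 563 and 609 CPM in MD + PE. CD + Veh replicate 4 was above CD + PE replicate 2, so the CD groups overlapped, whereas every MD + PE library was above every MD + Veh library. The log2 fold change was 0.48 ± 0.13, adjusted p = 0.0422 with PE on CD, 0.69 ± 0.13, adjusted p = 0.00112 with MD on vehicle and 0.60 ± 0.12, adjusted p = 0.00376 with MD on PE. With PE on MD it was 0.39 ± 0.12, adjusted p = 0.104 by edgeR, not called, and by DESeq2 the adjusted p was 0.0321. The call with PE on CD held in 11 of the 19 fits that left out 1 library and under 7 of 11 other settings. From CD + Veh to MD + PE the level of Acadm rose 2.11-fold (log2 fold change 1.08 ± 0.13, adjusted p = 7.51e-06).

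Hadh, the short-chain hydroxyacyl-CoA dehydrogenase, and Eci1, an isomerase for unsaturated chains, rose with MD on vehicle by 0.46 (adjusted p = 0.00306) and 0.40 (adjusted p = 0.0323) on the log2 scale. Hadh went from 274 ± 27.5 CPM to 377 ± 32.7 CPM and Eci1 from 82.5 ± 13.5 CPM to 109 ± 4.79 CPM, and neither pair of groups overlapped. Hadh was called in all 19 fits that left out 1 library and under all 11 other settings. Eci1 was called in 13 of the 19 fits and under 8 of the 11 settings. Acads, the short-chain dehydrogenase, was above CD + Veh in every MD + Veh library (109 to 135 against 140.0 to 156 CPM), but its change of 0.30 ± 0.08, adjusted p = 0.0144 was under the fold limit. The other 6 members of the spiral were called in no comparison by edgeR, and DESeq2 called Decr1 with MD and PE together (adjusted p = 0.00804). Of these, Acadvl was the flattest, with group means from 400.1 CPM in CD + Veh to 422 CPM in MD + PE, and the long-chain dehydrogenase Acadl went from 174 ± 24.8 CPM to 219 ± 24.4 CPM. The trifunctional protein subunits Hadha and Hadhb, whose genes overlap by 984 bases on opposite strands, changed by 0.14 and 0.20 with MD on vehicle and by 0.11 and 0.17 with PE on CD, all log2. Acaa2 changed by 0.09 and 0.13 in these comparisons, and the dienoyl-CoA reductase Decr1 by 0.34 (adjusted p = 0.0519) and 0.18.

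Of the electron transfer genes Etfdh, the oxidoreductase that passes the electrons to ubiquinone, was at 149, 142, 147 and 164 CPM in CD + Veh and at 178, 222, 212, 225 and 186 CPM in MD + Veh. These groups did not overlap, and the log2 fold change was 0.44 ± 0.09, adjusted p = 0.00184. With PE on CD Etfdh was at 195, 164, 203, 169 and 195 CPM, a change of 0.30 ± 0.09, adjusted p = 0.0622 that missed the threshold. The flavoprotein subunits Etfa and Etfb were called in no comparison, with changes between -0.08 and 0.15 on the log2 scale.

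Among the peroxisomal members Crot (chr5:8985926-9047393), the carnitine octanoyltransferase that readies shortened chains for export to the mitochondrion, had the largest change with PE on CD. It was at 169, 149.8, 213 and 128 CPM in the CD + Veh libraries and at 357, 353, 451, 309.7 and 369.9 CPM in the CD + PE libraries. In MD + Veh it was at 273, 388, 375, 339 and 267 CPM and in MD + PE at 395, 424, 504, 424 and 414 CPM. CD + Veh lay below all other libraries, CD + PE overlapped MD + Veh, and every MD + PE library was above every MD + Veh library. The level rose 2.23-fold with PE on CD, a log2 fold change of 1.16 ± 0.15, adjusted p = 0.000663, and 1.99-fold with MD on vehicle (0.99 ± 0.15, adjusted p = 0.000148). With PE on MD the change was 0.40 ± 0.13, adjusted p = 0.146 and with MD on PE 0.23 ± 0.13, adjusted p = 0.335, neither of which was called. The interaction of Crot was -0.76 ± 0.20, adjusted p = 0.216, and by DESeq2 its adjusted p was 0.0309. Crot was called with PE on CD in all 19 fits that left out 1 library and under all 11 other settings.

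Acaa1b, a peroxisomal 3-ketoacyl-CoA thiolase, was at 528, 832, 726 and 892 CPM in CD + Veh and at 1092, 871, 1553, 760.4 and 1131 CPM in CD + PE. It was at 2052, 2468, 2247, 2202 and 2024 CPM in MD + Veh and at 1919, 1798, 1886, 1811 and 1958 CPM in MD + PE. The CD libraries all lay below the MD libraries, the CD groups overlapped, and every MD + PE library was below every MD + Veh library. The log2 fold change was 1.56 ± 0.17, adjusted p = 6.44e-06 with MD on vehicle and 0.79 ± 0.16, adjusted p = 0.00363 with MD on PE. With PE the changes were 0.54 ± 0.17, adjusted p = 0.0771 on CD and -0.23 ± 0.15, adjusted p = 0.518 on MD, neither called by edgeR, and the interaction was -0.77 ± 0.23, adjusted p = 0.263. By DESeq2 the adjusted p for PE on CD was 0.0188, a call. Its near-copy Acaa1a went from 161 ± 18.6 CPM to 209 ± 9.11 CPM (0.37 ± 0.12, adjusted p = 0.0501), and the 2 summed changed by 1.41 with MD on vehicle (adjusted p = 8.89e-06) and by 0.48 with PE on CD (adjusted p = 0.0918).

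Both multifunctional enzymes of the peroxisomal spiral followed the diet. Ehhadh was at 120.3, 159, 122 and 179 CPM in CD + Veh and at 187, 285, 253, 275 and 209 CPM in MD + Veh, and Hsd17b4 at 354, 353, 359.7 and 391 and at 464, 566, 593, 658 and 529 CPM in these groups. Neither pair of groups overlapped, and the log2 fold changes were 0.74 ± 0.16, adjusted p = 0.0038 and 0.62 ± 0.09, adjusted p = 0.000191. In mice given PE, Ehhadh went from 165, 143, 207, 133 and 169.5 CPM on CD to 256, 265, 297, 215 and 326 CPM on MD, and Hsd17b4 from 410.4, 379.9, 475, 373 and 425 to 592, 565, 604, 594 and 684 CPM. Again the groups did not overlap, with changes of 0.73 ± 0.15, adjusted p = 0.0046 and 0.56 ± 0.09, adjusted p = 0.000508. PE on CD changed Ehhadh by 0.17 ± 0.16, adjusted p = 0.638 and Hsd17b4 by 0.18 ± 0.09, adjusted p = 0.34, neither of which was called.

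The importers of the peroxisome were called lower, each in 1 comparison. Abcd3, the more abundant acyl-CoA transporter, was at 508, 573, 480.1 and 716 CPM in CD + Veh and at 388, 423, 486, 377 and 441 CPM in MD + PE. MD + PE replicate 3 lay just above CD + Veh replicate 3, so the groups overlapped, and the log2 fold change was -0.43 ± 0.12, adjusted p = 0.0147. Without CD + Veh replicate 4 it was -0.27 (adjusted p = 0.113) and no longer called. Abcd2, its low-expressed relative, was at 26.1, 19.6, 46.6, 14.6 and 46.5 CPM in CD + PE and at 5.20, 15.5, 9.65, 16.8 and 7.72 CPM in MD + PE. The groups overlapped, the change was -1.48 ± 0.43, adjusted p = 0.0427, and it was called in 7 of the 19 fits that left out 1 library. Pex11a, which takes part in peroxisome division, was at 52.7, 52.9, 49.1 and 94.3 CPM in CD + Veh and at 84.4, 92.04, 92.5, 96.9 and 103 CPM in MD + PE, with CD + Veh replicate 4 within the MD + PE range. Pex11a and the isomerase Eci2 were called by edgeR with MD and PE together and in no other comparison (0.59 ± 0.17, adjusted p = 0.0183, and 0.55 ± 0.18, adjusted p = 0.0322), as was Acaa1a (0.47 ± 0.12, adjusted p = 0.0103). DESeq2 also called Pex11a with MD on vehicle (adjusted p = 0.0431). The reductase Decr2 was called in no comparison, with group means from 138 to 142 CPM.

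**Figure D3:**
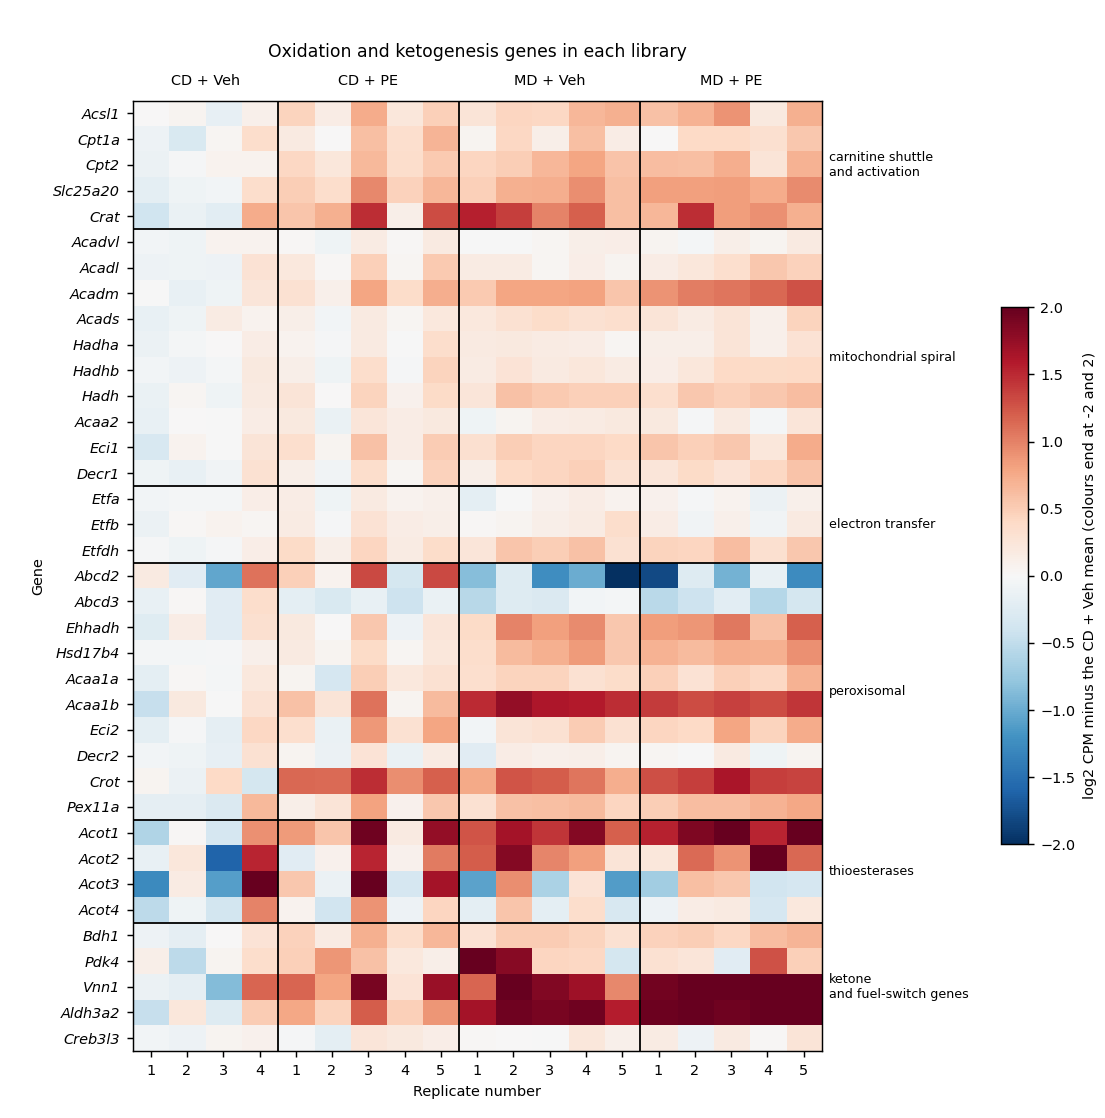
Log2 CPM of the 37 members (rows, grouped by role) in the 19 libraries (columns), each minus the mean of the gene in CD + Veh; colours end at -2 and 2. Crot is raised in all libraries but those of CD + Veh, Acaa1b and Aldh3a2 are raised most in the MD libraries, and CD + Veh replicate 4 and CD + PE replicate 3 stand above their groups in many rows.

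The acyl-CoA thioesterases, which release free fatty acid and CoA, were low and varied widely within groups. Acot1, the cytosolic form, was at 5.41, 8.45, 6.51 and 15.8 CPM in CD + Veh and at 15.1, 12.3, 32.2, 9.44 and 28.5 CPM in CD + PE. It was at 20.03, 26.6, 22.7, 29.9 and 19.2 CPM in MD + Veh and at 24.4, 30.6, 45.9, 24.1 and 39.4 CPM in MD + PE. Every MD library was above every CD + Veh library, while CD + PE overlapped CD + Veh, and the log2 fold change was 1.39 ± 0.35, adjusted p = 0.0114 with MD on vehicle and 1.11 ± 0.35, adjusted p = 0.0852, not called by edgeR, with PE on CD, where the adjusted p of DESeq2 was 0.0167, a call. The mitochondrial Acot2, with group means from 3.41 to 6.10 CPM, and the peroxisomal Acot3 and Acot4, the latter from 47.2 to 54.9 CPM, were called in no comparison. Acot3 was at 2.11, 6.02, 2.42 and 25.4 CPM in CD + Veh and at 7.89, 4.91, 34.9, 4.22 and 17.3 CPM in CD + PE, highest in CD + Veh replicate 4 and CD + PE replicate 3, which lay far above the lowest library of either group. Acot2, the near-copy of Acot1, changed by 0.74 ± 0.51, adjusted p = 0.353 with MD on vehicle. All 4 summed changed by 0.21 ± 0.34 (adjusted p = 0.732), a sum of 71.9 CPM in CD + Veh of which Acot4 gave 50.5 CPM and Acot1 9.05 CPM.

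Of the ketone and fuel-switch genes, Bdh1, which interconverts acetoacetate and beta-hydroxybutyrate, was at 175, 167, 190.0 and 227 CPM in CD + Veh and at 260.1, 209.8, 309, 241 and 299.8 CPM in CD + PE. It was at 229, 268, 266, 256 and 232 CPM in MD + Veh, above all CD + Veh libraries, whereas CD + PE replicate 2 lay below CD + Veh replicate 4. The log2 fold change was 0.48 ± 0.11, adjusted p = 0.0193 with PE on CD and 0.40 ± 0.11, adjusted p = 0.0188 with MD on vehicle.

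Aldh3a2, the fatty aldehyde dehydrogenase, was at 125, 202, 144 and 244 CPM in CD + Veh and at 296, 236, 398, 239 and 317 CPM in CD + PE. It was at 549, 664, 643, 664 and 515 CPM in MD + Veh and at 675, 693, 669, 719.9 and 771 CPM in MD + PE. The group ranges stood in this order, with overlap between the CD groups and none elsewhere. The change was 0.73 ± 0.17, adjusted p = 0.0217 with PE on CD, 1.76 ± 0.18, adjusted p = 2.33e-06 with MD on vehicle and 1.25 ± 0.16, adjusted p = 5.78e-05 with MD on PE, and 0.22 ± 0.16, adjusted p = 0.56 with PE on MD, which was not called.

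Vnn1, a pantetheinase of the CoA breakdown path, was at 16.2, 15.5, 9.60 and 39.5 CPM in CD + Veh and at 39.8, 30.6, 65.9, 21.2 and 58.4 CPM in CD + PE. It was at 39.5, 74.5, 63.8, 57.3 and 34.3 CPM in MD + Veh and at 67.1, 122, 72.6, 91.4 and 106 CPM in MD + PE. CD + Veh replicate 4 reached the MD + Veh range, and the change was 1.42 ± 0.37, adjusted p = 0.0149 with MD on vehicle and 2.18 ± 0.38, adjusted p = 0.000406 with MD and PE together, the largest of all members in that comparison. The highest Vnn1 library, MD + PE replicate 2, was also the library with 298.9 CPM of intestinal epithelium markers, whose part in the value was not tested. Creb3l3, a liver transcription factor of the fasting response, was called in no comparison, with group means from 181 to 194 CPM.

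Pdk4, the kinase that shuts off pyruvate dehydrogenase, had the largest change of all members with MD on vehicle, and 1 library set much of its size. It was at 5.41, 3.44, 5.17 and 6.40 CPM in CD + Veh and at 65.2, 18.03, 6.75, 6.66 and 3.86 CPM in MD + Veh. Replicates 1 and 2 of MD + Veh stood far above the rest. Replicates 3 and 4 lay just above the highest CD + Veh library and replicate 5 within the CD + Veh range. The change on the log2 scale was 1.98 ± 0.61, adjusted p = 0.0366. When MD + Veh replicate 1 was left out it was 0.81 (adjusted p = 0.179). The call was also lost without MD + Veh replicate 2 and without any 1 of the CD + Veh replicates, and under 4 of 11 other settings. The summed skeletal muscle markers of the MD + Veh libraries were 3491, 219, 161, 18.3 and 3.09 CPM in the order of the replicates, and their part in the Pdk4 values was not tested. With PE on MD, Pdk4 was at 6.18, 5.89, 4.26, 12.3 and 7.004 CPM, a change of -1.49 ± 0.55, adjusted p = 0.187 that was not called.

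**Figure D4:**
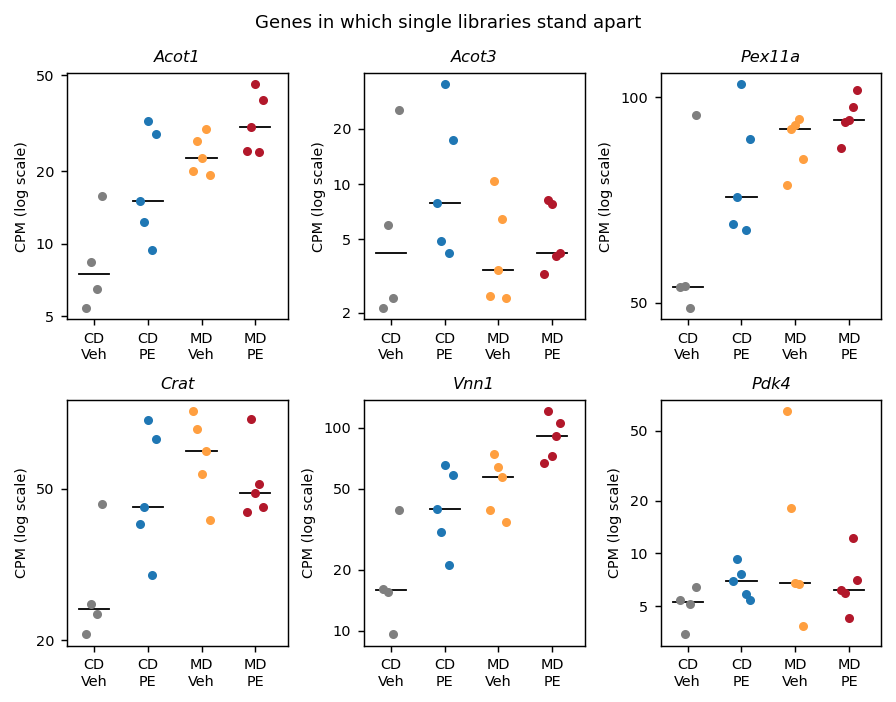
CPM on a log axis of 6 members in each library, with 1 point per mouse and a line at the group median. CD + Veh replicate 4 is the highest CD + Veh point in all 6 panels, and MD + Veh replicate 1 is the highest Pdk4 point at 65.2 CPM.

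Single libraries moved many members together. CD + Veh replicate 4 was the highest of its group in 32 of 37 members and the lowest in 1, Crot, and CD + PE replicate 3 was the highest of its group in 28 members and the lowest in 0. Without CD + Veh replicate 4, PE on CD called 10 members in place of 6, and without CD + PE replicate 3 it called 2, Crot and Slc25a20, which were called in all 19 such fits. Without CD + Veh replicate 1 it also called 2, and without CD + Veh replicate 2 it called 3. The libraries were numbered in blocks, and those of both PE groups came after those of both vehicle groups, so PE cannot be told apart from the order of the libraries. With a covariate for library numbers above 45, which divides the MD + Veh group, PE on CD called 1 member, Crot (log2 fold change 1.35, adjusted p = 0.0211). The 6 members called without it had the same sign with it, and their median change was 0.52 in place of 0.53, while calls over all genes went from 397 to 37. Only MD + Veh had libraries on both sides of this division, so the size of the covariate came from that group alone. On CD the division coincided with PE, so this fit cannot tell PE from library order there. With the clock score as a covariate, MD on vehicle called 10 members in place of 17. The 17 all had the same sign, with a median change of 0.83 in place of 0.69, while calls over all genes went from 1410 to 393. PE on CD then called 6 members, 5 of them the same. The clock scores of CD + Veh lay below those of all other libraries. In both comparisons with CD + Veh, group and clock score therefore cannot be told apart by these fits. The adipocyte markers moved with the diet calls, as did the Kupffer cell markers (112 to 197 CPM in CD + Veh and 224 to 339 CPM in MD + Veh). The sum of the intestinal epithelium markers did so too (54.5 to 104 CPM on CD and 116 to 298.9 CPM on MD). Cdx1 and Cdx2 were at 0 in all groups but MD + PE. Outside MD + PE replicate 2, most of the intestinal sum was Fabp2. Its level was 42.6 to 76.96 CPM on CD and 97.8 to 121 CPM on MD. Lgals4 was at 5.96 to 26.4 CPM on CD and, outside that library, at 7.36 to 13.6 CPM on MD. The part of these 3 marker lists in the diet calls was not tested.

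Outside the members, a list of 59 other genes was examined, of which 55 were tested. It held genes of beta oxidation and ketone synthesis, and also acetyl-CoA carboxylases, acyl-CoA synthetases, thioesterases, fatty acid transporters and Pdk kinases. With PE on CD 1 of them rose and 5 fell (Acaca, Acacb, Acot7, Acsl4 and Acsl5), against 1.22% and 1.7% of all tested genes. With PE on MD 0 rose and 3 fell (Acaca, Acacb and Acsl5), against 1.08% in either direction. With MD on vehicle 10 rose and 5 fell, against 4.74% and 5.63%, and with MD on PE 2 rose and 5 fell, against 1.69% and 2.92%. With MD and PE together 14 rose and 8 fell, against 6.02% and 8.55%. Acaca and Acacb, the acetyl-CoA carboxylases that make malonyl-CoA, an inhibitor of Cpt1, fell in all 5 comparisons of groups. Acacb averaged 396 ± 118 CPM with CD + Veh, 134 ± 37.4 CPM with CD + PE, 95.3 ± 36.5 CPM with MD + Veh and 17.04 ± 5.92 CPM with MD + PE. Its log2 fold change was -1.56 ± 0.29, adjusted p = 0.00515 with PE on CD, -2.48 ± 0.29, adjusted p = 0.000611 with PE on MD and -2.06 ± 0.29, adjusted p = 0.000105 with MD on vehicle. Acaca was at 443 ± 143 CPM, 145 ± 29.6 CPM, 155 ± 22.9 CPM and 94.4 ± 9.54 CPM in the same order of groups, with -1.61 ± 0.18, adjusted p = 0.000159 for PE on CD and -0.71 ± 0.17, adjusted p = 0.0389 for PE on MD. The acyl-CoA synthetases Acsl5 (-0.75 ± 0.11, adjusted p = 0.0012) and Acsl4 (-0.66 ± 0.18, adjusted p = 0.043) fell with PE on CD, as did the thioesterase Acot7. With MD on vehicle Acsl5 fell by 0.83 and the kinase Pdk1 by 0.77 on the log2 scale.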

How the data were processed

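Liver poly(A) RNA of 19 mice was sequenced in stranded libraries. The authors trimmed reads with fastp 0.23.4, quantified them with Salmon 1.10.3 against the GENCODE transcriptome of GRCm39 and corrected for sequence bias. Gene totals were formed with tximport. Values as deposited are estimated counts, whole numbers for each gene and library without normalization, and groups follow the sample labels. Fits were made here in R 4.3.3 with edgeR 4.0.16: TMM scaling, filterByExpr by group, 1 coefficient per group over all 19 libraries, quasi-likelihood F tests and Benjamini-Hochberg adjustment over 13597 genes. SE is the absolute log2 fold change over the root of F. The thresholds (adjusted p of 0.05, log2 fold change of 0.38) follow the limits in the study's methods. DESeq2 1.42.0 was an alternative, and the edgeR step was tested on simulated data. Members, gene lists, groups by role and the rule for named genes (members called, at most 12 per comparison by size, the largest of each role, and at most 4 genes of each other list) were chosen with earlier results of these data known. The clock score sets clock genes of one phase against those of the opposite phase. Sums over near-identical genes were chosen after seeing the data. The values of 1 gene of the other lists are not reported here. Depth per library limits the low members, at about 9.96 to 16.1 counts per CPM.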

Additional observations from a re-analysis of the deposited data

Results flagged for a closer look

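In 13 of 148 sets of values (1 member in 1 group), 1 library stood apart from its group by Dixon's test at the 95% level. Chance marks about 1 in 20 such sets, or 7.4 of 148, so single marks carry little weight. CD + Veh replicate 4 gave 8 of the 13, all high. Its CPM was 45.7 for Crat against 20.7 to 24.9 in the other CD + Veh libraries, 210.8 for Acadl against 160.1 to 162, and 159.9 for Hadhb against 130.4 to 135. It was also 145 for Decr1 against 107 to 113, 290.2 for Etfa against 256 to 259, and 391 for Hsd17b4 against 353 to 359.7. For Pex11a it was 94.3 against 49.1 to 52.9, and for Acot3 25.4 against 2.11 to 6.02. MD + PE replicate 2 was high for Crat, at 76.0 CPM against 43.5 to 51.4, and MD + PE replicate 3 for Crot, at 504 against 395 to 424. MD + Veh replicate 1 was high for Pdk4, at 65.2 CPM against 3.86 to 18.0, and low for Decr2, at 116 against 142 to 151. CD + PE replicate 2 was low for Acaa2, at 459 CPM against 559 to 597. This library also had the most Kupffer cell marker, MD + PE replicate 2 the most intestinal marker and MD + Veh replicate 1 the most skeletal muscle marker, and their part in these values was not tested.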

How the results depend on the processing

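The number of members called with PE on CD was 6 and ranged from 2 to 10 when each of the 19 libraries was left out (2 without CD + PE replicate 3, 2 without CD + Veh replicate 1, 3 without CD + Veh replicate 2 and 10 without CD + Veh replicate 4). DESeq2 called 10, a fit of only the 2 groups compared called 2, and the covariate for library numbers above 45 left 1. With MD on vehicle the number was 17, ranged from 13 to 19 with 1 library left out, and was 10 with the clock score as a covariate. With MD and PE together it was 20, ranged from 17 to 24, and was 8 with the library number covariate. With MD on PE it was 6 and ranged from 5 to 7. With PE on MD it was 0 in all 19 such fits and 1 by DESeq2. For the interaction it was 0 in all 19 such fits and 1 by DESeq2 and by the fit with a replicate block, Crot in both. The cause of these shifts was not tested. No paired design was given by the labels. Over 27 pairs of same-numbered libraries the median correlation of deviations was 0.03, 6 pairs were above 0.1, and 4 of 19 libraries correlated best with their own number. The replicate block gave 5 members for PE on CD, 15 for MD on vehicle, 5 for MD on PE, 20 for MD and PE together, 0 for PE on MD and 1 for the interaction. Of 1470 alternative values of 49 called gene changes, 1363 stayed past the thresholds, 107 did not and 0 changed sign. The library number covariate gave 20 of the 107, the clock score 13 and leaving out a library 62. Estimated counts of near-identical genes, and depth for members under a few CPM, limit the values.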

Other observations

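The 20 genes of a list of Ppara targets outside oxidation were all tested. With PE on CD 2 rose and 0 fell by edgeR, against 1.22% and 1.7% of all tested genes, 9 were at an unadjusted p below 0.05, against 17.5%, and DESeq2 called 7 higher, against 3.85% in either direction. With PE on MD 0 were called by edgeR, against 1.08% of all tested genes, 6 were at an unadjusted p below 0.05, against 15.7%, and DESeq2 called 2, against 2.18%. With MD on vehicle 9 rose and 1 fell (Txnip), against 4.74% and 5.63%. With MD on PE 4 rose (Cidec, Plin4, Cd36 and Mgll) and 1 fell (Fabp1), against 1.69% and 2.92%. With MD and PE together 9 rose and 1 fell (Fabp1), against 6.02% and 8.55%. The genes that rose with PE on CD were the fatty acid omega-hydroxylases Cyp4a10, from 40.8 ± 31.7 to 223 ± 132 CPM (SD, n = 4 and 5; log2 fold change 2.45 ± 0.56, adjusted p = 0.0191 by edgeR), and Cyp4a31, from 2.87 ± 1.08 to 8.35 ± 5.03 CPM (1.54 ± 0.38, adjusted p = 0.0305). The Cyp4a genes are close copies, so their split is uncertain. With MD on vehicle the lipid droplet genes led. Cidec went from 1.64 ± 0.967 to 18.1 ± 7.99 CPM (3.45 ± 0.53, adjusted p = 0.000239) and Plin4 from 5.72 ± 1.61 to 31.98 ± 13.01 CPM (2.49 ± 0.35, adjusted p = 9.48e-05). The fatty acid transporter Cd36 went from 21.9 ± 11.3 to 106 ± 26.3 CPM (2.28 ± 0.35, adjusted p = 0.000286). Cidec, Plin4 and Cd36 are also expressed in adipocytes. The sum of the adipocyte markers was higher in the MD libraries, mainly through Cfd. Adipoq stayed at or below 4.18 CPM and Plin1 at or below 3.99 CPM in every library. The part of adipocyte RNA in these values was not tested.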
